A study of Mus musculus with 12 samples.

Results

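The liver enzymes described here are 3 families that attach a water-soluble group to drugs, hormones, bilirubin and bile acids: the UDP-glucuronosyltransferases (Ugt), the sulfotransferases (Sult) and the soluble glutathione S-transferases (Gst). Their genes were taken by name from the annotation of the array: every probe named Ugt or Sult followed by a digit, or Gst followed by one of the class letters a, k, m, o, p, t or z and a digit. This gave 44 genes with 59 probes, out of 27962 gene names on the array, made up of 14 Ugt, 11 Sult and 19 Gst genes. Where a gene had several probes the brightest was used. The test was run on genes whose probe exceeded the background in every array of 1 or more groups. Of the 44 genes 41 passed, with Sult2a2, Sult2b1 and Ugt8a left out.

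The RNA came from whole livers of 12 male C57BL/6 mice, 1 array per mouse, in 4 groups of 3 biological replicates. The mice were SIRT1+/+ (WT) or SIRT1+/- (Het) and ate low-fat or high-fat food over 34 weeks. The labels do not give the age of the mice, the composition of the diets or the part of Sirt1 that the mutant allele lacks. SIRT1 removes acetyl groups from proteins and needs NAD to do so. The series is about its role when diet causes metabolic disease.

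Conjugation, called phase II of drug metabolism, follows or replaces oxidation by cytochrome P450 enzymes. Glucuronosyltransferases sit in the endoplasmic reticulum and take glucuronic acid from UDP-glucuronic acid, sulfotransferases take sulfate from the donor PAPS in the cytosol, and glutathione S-transferases join the tripeptide glutathione to reactive electrophiles. The products leave the hepatocyte through export pumps into bile or blood. In rodent liver many of these genes respond to the receptors CAR, PXR and AHR and to the stress-responsive factor NFE2L2, and several differ between the sexes through the pulsatile pattern of growth hormone.

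Levels are log2 values relative to the 75th percentile of the processed signal of the same array, so a level of 0 lies at that percentile. Differences are log2 values with their standard error, and a gene was called where its Benjamini-Hochberg adjusted p in limma, over all 17042 genes tested, was below 0.05. The share of spots well above background ran from 58.0% to 71.6% per array, no spot of the 44 genes was saturated, and the number of arrays limits the precision. All 11 hepatocyte markers tested were above background on all 12 arrays. Sirt1 ranged from -0.09 to 0.23 in WT and from -0.62 to -0.23 in Het on the low-fat diet, and from -0.37 to -0.17 in WT and from -0.73 to -0.67 in Het on the high-fat diet, so the genotypes did not overlap on either diet. The 6 high-fat arrays lay on slides 1 and 2 and the 6 low-fat arrays on slides 3 and 4, so diet and slide cannot be told apart in any diet difference. Genotypes were spread unevenly over the slides. WT high-fat replicates 1 and 2 lay alone on slide 1, and Het low-fat replicates 2 and 3 alone on slide 4. Where slide was fitted as a block, genotype differences therefore rest on WT high-fat replicate 3 (slide 2) and Het low-fat replicate 1 (slide 3). On the high-fat diet 1 array of each genotype stood low for these genes. The array of WT replicate 2 had the lowest value of its group for 35 of the 41 genes tested, and that of Het replicate 3 for 34 of 41. In whole liver, fewer cells of a type and less RNA per cell cannot be told apart.

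The high-fat livers held more RNA of 8 conjugation enzyme genes and less of 6. With both genotypes in 1 comparison, 14 of the 41 genes tested were called, 34.1%, beside 30.2% of all genes tested, so the share was near that of the whole array. The 8 genes that rose were 5 of the 7 mu-class glutathione transferases (Gstm1, Gstm2, Gstm3, Gstm4 and Gstm5), the alpha-class Gsta2, the estrogen sulfotransferase Sult1e1 and the glucuronosyltransferase Ugt1a9, beside 13.4% of all genes called higher. The 6 that fell were Ugt2b1, Ugt2b5, Ugt2a3, Sult1b1, Sult1d1 and Gsto2, beside 16.7% of all genes called lower. All 6 high-fat livers lay above all 6 low-fat livers for 3 of the 41 genes and below them for 2, beside 6.01% and 7.41% of all genes. The median difference of the 41 genes was -0.02 and that of all genes -0.03. P-values here measure the spread between mice of a group. Without both high-fat arrays that stood low, 14 genes were again called, now 12 higher and 2 lower, beside 12.6% and 14.6% of all genes. All 8 that rose were among the 12, and of the 6 that fell Ugt2b1 and Ugt2b5 were called. Both arrays were chosen for low values of these same genes, on the high-fat side only. Leaving them out raises the high-fat mean of most of the 41 genes. It is therefore no independent check of a rise or a fall, here or below. With arrays scaled to their median in place of the 75th percentile the split was 9 higher and 2 lower, beside 16.8% and 11% of all genes. Sult1e1, Ugt1a9, Ugt2b1, Gsta2, Gstm1, Gstm4 and Gstm5 were called under every alternative setting tried.

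**Figure D1:**
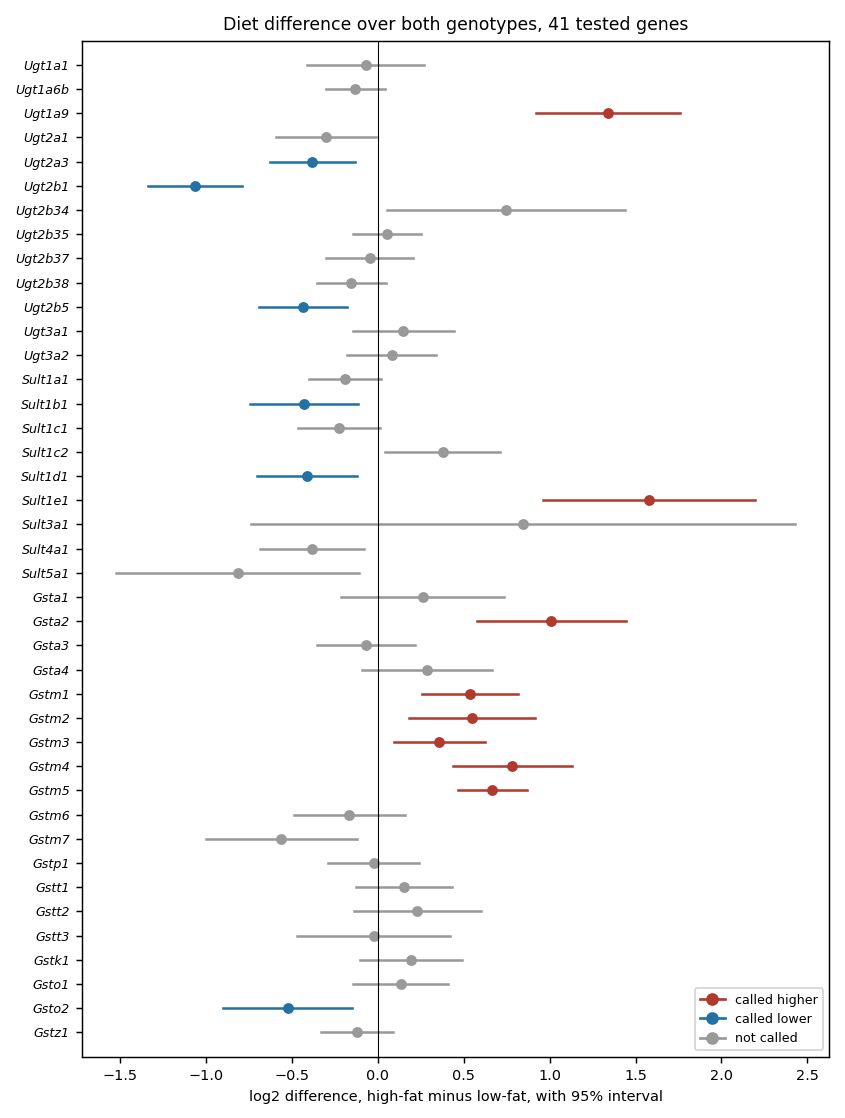
Log2 difference of each of the 41 tested genes between the high-fat and the low-fat groups, both genotypes together, as points with lines for the 95% interval, ordered by enzyme class and coloured by call. Called genes run from Ugt2b1 at -1.06 to Sult1e1 at 1.58, and the 5 called mu-class genes lie together on the positive side; Sult3a1 was above background on only 5 of the 12 arrays.

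Sequences of the genes that carry these differences are shown first. The mu-class genes are near copies of one another, so the first 30 bases of each 60-base array probe are given, 5′ to 3′. Probes were compared with each other and not with the transcripts of the other genes. The comparison therefore cannot show whether a probe takes signal from a copy. Capitals mark the part of the longest run of bases that a probe shares with the probe of another of the 44 genes, where that run falls in these 30 bases.
Gstm1: gcctgttcctggtggagtagcctccccagg
Gstm2: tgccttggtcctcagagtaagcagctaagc
Gstm3: tagaaataccctgatggtcaatactatctt
Gstm4: tcccCATGCTTGTCTggagaccagagacgg
Gstm5: tctcacCTATGATGTCttggatcagaaccg

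Gstm4 shares its run of 11 bases with the probe of Ugt1a6b, and Gstm5 its run of 10 bases with that of Gstm6. Aligned without gaps, shifted by up to 20 bases, the 7 mu-class probes matched each other at no more than 31 of 60 bases (Gstm1 and Gstm2), and the longest run shared between any of them was 10 bases. The longest run shared by any probes tested was one of 20 bases between the alpha-class Gsta1 and Gsta2, shown in capitals within 30 bases of each probe.
Gsta1: gacatgtattCAGAAGGTATTTTAGATCTG
Gsta2: gtataCAGAAGGTATTTTAGATCTGactga

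The named copies within a class are uncertain one by one, and signal of a gene in the probe of another of its class was not tested. The probes of the sulfotransferase and the glucuronosyltransferases that moved most are given in the same way. Sult1e1 shares a run of 10 bases with Sult1d1, Ugt1a9 one of 9 bases with Sult1c1 and Ugt2b1 one of 9 bases with Ugt2a3.
Sult1e1: aatggagctctgagccacttccttgTGTCT
Ugt1a9: tatcTACATTGAAgaacatgcattttgctc
Ugt2b1: actatacccaacAACAATCACtgaggttac

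Ugt1a9 was the 1 glucuronosyltransferase gene called higher. Its first exon is one of several alternative first exons of the Ugt1a locus, each joined to the same downstream exons, and its product conjugates phenols and fatty acids. The probe lies at chr1:87975078-87975137 of the mouse build mm7, at the far end of the locus from the probe of Ugt1a1. Its levels were -1.75, -1.09 and -0.82 in WT and -1.65, -1.41 and -1.71 in Het on the low-fat diet, and 0.16, -0.25 and 0.47 in WT and 0.18, -0.49 and -0.44 in Het on the high-fat diet. All 6 high-fat livers lay above all 6 low-fat livers. The difference was 1.34 ± 0.19 on the log2 scale, 2.53-fold (limma, adjusted p = 0.0011), and it was 1.35 ± 0.27 in WT and 1.34 ± 0.27 in Het.

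Ugt1a1, the bilirubin-conjugating enzyme of the same locus, differed by -0.07 ± 0.15 (adjusted p = 0.75). Ugt1a6b, whose product conjugates small planar phenols, had probes that disagreed. Its brightest probe, placed beyond that of Ugt1a1 near the downstream end of the locus, differed by -0.13 ± 0.08. Its other probe, placed between those of Ugt1a9 and Ugt1a1, differed by 0.50 ± 0.14 (adjusted p = 0.022 over all 25296 probes that passed the filter). Because Ugt1a transcripts have their downstream exons in common, a probe there can take signal from the whole locus; no exon annotation of mm7 was used here.

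Ugt2b1 had the lowest difference of the 41 genes. The Ugt2b enzymes conjugate steroids, bile acids and drugs. Its levels were 4.05, 4.16 and 4.13 in WT and 4.0, 3.62 and 4.03 in Het on the low-fat diet, against 3.14, 2.78 and 3.15 in WT and 2.50, 3.03 and 3.01 in Het on the high-fat diet. The diets did not overlap in either genotype. The high-fat level was 47.8% of the low-fat level, a difference of -1.06 ± 0.12 (adjusted p = 6e-04), with -1.09 ± 0.18 in WT and -1.03 ± 0.18 in Het.

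Ugt2b5, another Ugt2b enzyme of hepatocytes, was at 6.07, 5.94 and 6.14 in WT and 6.07, 6.10 and 6.07 in Het on the low-fat diet and at 5.77, 5.60 and 5.71 in WT and 5.15, 5.66 and 5.86 in Het on the high-fat diet. Every high-fat liver lay below every low-fat liver, by -0.44 ± 0.12 in the mean (73.8% of the low-fat level, adjusted p = 0.017). This call was lost where arrays were scaled to their median or where a trend on probe GC content and level was removed. Ugt2a3 was at 6.06, 6.05 and 5.87 in WT and 5.80, 5.71 and 6.13 in Het on the low-fat diet, and at 5.69, 5.45 and 5.67 in WT and 5.38, 5.79 and 5.34 in Het on the high-fat diet. In WT the diets did not overlap, in Het 1 high-fat liver lay among the low-fat ones. The difference was -0.38 ± 0.11 (adjusted p = 0.027), and -0.30 with adjusted p = 0.10 without both high-fat arrays that stood low.

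The other Ugt2 genes were not called. Ugt2b34 differed by 0.75 ± 0.31 (adjusted p = 0.093), with 1 low-fat liver of each genotype, at 3.49 and 3.35, inside the high-fat range. Ugt2b37 and Ugt2b38, named for the brightest probes of the class, differed by -0.05 ± 0.11 and -0.16 ± 0.09, Ugt2b35 by 0.05 ± 0.09 and Ugt2a1 by -0.30 ± 0.13. A second Ugt2b37 probe differed by -0.54 ± 0.09 (adjusted p = 0.0025 over all probes), so the probes of this gene do not give 1 answer. The Ugt3a enzymes, which use other sugar donors, differed by 0.15 ± 0.13 (Ugt3a1) and 0.08 ± 0.12 (Ugt3a2). Ugt8a, which makes galactosylceramide of myelin in nerve tissue, was not well above background on all arrays of any group.

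**Figure D2:**
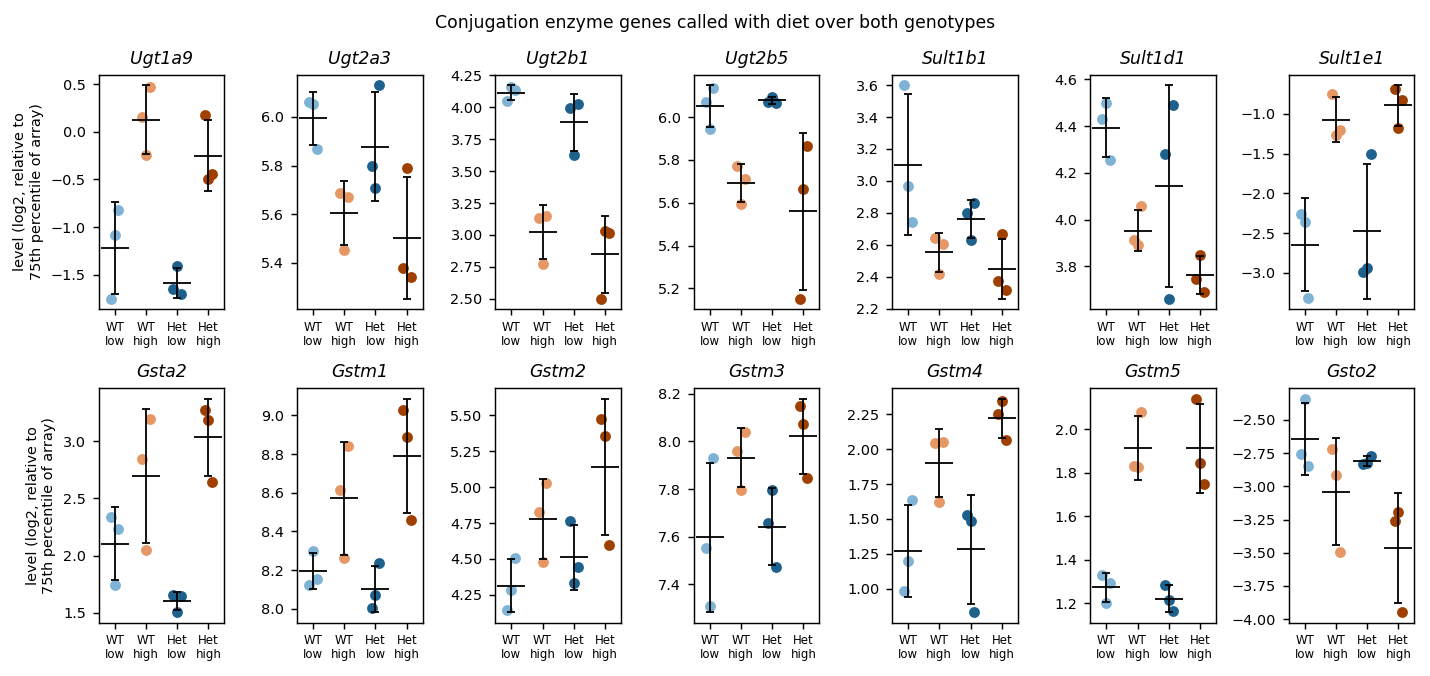
Level of the 14 genes called with diet over both genotypes, in log2 relative to the 75th percentile of each array, with a point per mouse and a bar for the mean and SD of 3 mice in each of the 4 groups; each panel has its own scale. All 6 high-fat points lie above all 6 low-fat points for Ugt1a9, Sult1e1 and Gstm5, and below them for Ugt2b1 and Ugt2b5.

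Sult1e1 had the highest difference of the 41 genes. Its product adds sulfate to estrogens, which can then no longer bind their receptor. The probe lies at chr5:87512926-87512985 of mm7. Levels on the low-fat diet were -2.26, -2.36 and -3.32 in WT and -3.00, -2.94 and -1.50 in Het, and on the high-fat diet -0.75, -1.26 and -1.21 in WT and -0.68, -1.18 and -0.82 in Het. The lowest high-fat liver, at -1.26, lay above the highest low-fat liver, at -1.50. The difference was 1.58 ± 0.28, or 2.99-fold (adjusted p = 0.0029), with 1.57 ± 0.40 in WT and 1.59 ± 0.40 in Het. The call in WT alone was narrow, with an adjusted p of 0.045, and held in 1 of the 12 fits that left out an array.

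Sult1b1 and Sult1d1, neighbours of Sult1e1 on chromosome 5, fell. Sult1b1, which acts on thyroid hormones and phenols, was at 3.60, 2.97 and 2.74 in WT and 2.80, 2.63 and 2.86 in Het on the low-fat diet, and at 2.64, 2.41 and 2.60 in WT and 2.37, 2.67 and 2.31 in Het on the high-fat diet. The high-fat group of WT lay below its low-fat group, while in Het the highest high-fat liver lay above the lowest low-fat liver. The difference was -0.43 ± 0.14 (adjusted p = 0.042). Sult1d1, which acts on catecholamines and phenols, was at 4.43, 4.50 and 4.25 in WT and 4.28, 3.66 and 4.49 in Het on the low-fat diet, and at 3.91, 3.89 and 4.06 in WT and 3.75, 3.85 and 3.69 in Het on the high-fat diet. Het low-fat replicate 2 was the lowest of all 12 livers, so only in WT did the diets not overlap. The difference was -0.41 ± 0.13 (adjusted p = 0.037). Neither call held without both high-fat arrays that stood low, at adjusted p = 0.14 and 0.11, nor when arrays were scaled to their median. Both were also lost in most of the fits that left out an array. A second Sult1b1 probe differed by -0.39 ± 0.15 (limma, adjusted p = 0.075 over all probes).

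Sult1a1, the phenol sulfotransferase, and Sult1c1 differed by -0.19 ± 0.10 and -0.23 ± 0.11, and Sult1c2 by 0.38 ± 0.15 (adjusted p = 0.082). Sult5a1 differed by -0.82 ± 0.32 (adjusted p = 0.076), over a wide spread from -2.21 to -0.01, and Sult4a1 by -0.38 ± 0.14 (adjusted p = 0.056). Sult3a1 was above background on 1, 3, 0 and 1 of 3 arrays in the WT low-fat, WT high-fat, Het low-fat and Het high-fat groups, so its fitted difference is not given as a measurement. Sult2a2 and Sult2b1, of the class that conjugates hydroxysteroids and cholesterol, were above background on 2 of 3 Het high-fat arrays and on no WT high-fat array. Sult2b1 was also above background on 2 of 3 WT and 1 of 3 Het low-fat arrays, and Sult2a2 on none. For neither gene were all Het high-fat arrays above background, so no fold difference between the genotypes is given, and none was tested. Sult2a8, whose probe carries another name in the array design and so falls outside the 44 genes, fell by 0.86 ± 0.20 on the log2 scale with the high-fat diet (adjusted p = 0.011).

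Of the 7 mu-class glutathione transferases on chromosome 3, which conjugate epoxides and many drug metabolites, 5 rose and 0 fell. Of all genes 13.4% were called higher and 16.7% lower. Gstm1, the leading mu enzyme of mouse liver, was at 8.12, 8.30 and 8.15 in WT and 8.0, 8.07 and 8.23 in Het on the low-fat diet, and at 8.61, 8.26 and 8.84 in WT and 9.03, 8.89 and 8.46 in Het on the high-fat diet. Of the high-fat livers only WT replicate 2, at 8.26, lay inside the low-fat range. The difference was 0.53 ± 0.13, or 1.45-fold (adjusted p = 0.011), and a second Gstm1 probe gave 0.75 ± 0.15.

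Gstm5 was at 1.33, 1.20 and 1.29 in WT and 1.28, 1.21 and 1.16 in Het on the low-fat diet, and at 1.83, 1.83 and 2.08 in WT and 2.14, 1.85 and 1.75 in Het on the high-fat diet. No high-fat liver was below 1.75 and no low-fat liver above 1.33. The difference was 0.67 ± 0.09, or 1.59-fold (adjusted p = 9.7e-04), and was called in both genotypes.

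Gstm4 was at 0.99, 1.20 and 1.63 in WT and 1.53, 1.49 and 0.84 in Het on the low-fat diet, and at 2.04, 1.62 and 2.05 in WT and 2.25, 2.35 and 2.07 in Het on the high-fat diet. The single overlap was WT high-fat replicate 2, at 1.62, beside WT low-fat replicate 3, at 1.63. The difference was 0.78 ± 0.16, or 1.72-fold (adjusted p = 0.0053). Gstm2 was at 4.15, 4.28 and 4.51 in WT and 4.76, 4.33 and 4.44 in Het on the low-fat diet, and at 4.83, 4.48 and 5.03 in WT and 5.47, 5.35 and 4.59 in Het on the high-fat diet. Both arrays that stood low overlapped the low-fat livers. Its difference was 0.55 ± 0.17 (adjusted p = 0.031). The call was lost with the replicate block, with no filter on dim probes and in most of the fits that left out an array. Gstm3 was at 7.55, 7.31 and 7.93 in WT and 7.66, 7.79 and 7.47 in Het on the low-fat diet, and at 7.96, 7.80 and 8.04 in WT and 8.15, 8.07 and 7.85 in Het on the high-fat diet. In WT the highest low-fat liver lay inside the high-fat range, in Het the diets did not overlap. Its difference of 0.36 ± 0.12 (adjusted p = 0.043) was the smallest called, and the call was lost in 13 of 21 alternative fits, with adjusted p from 0.0045 to 0.21.

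Gstm6 and Gstm7 were not called, and both differences were below 0. Gstm6 differed by -0.17 ± 0.15 and Gstm7 by -0.56 ± 0.20 (adjusted p = 0.054), and a second Gstm7 probe by -0.25 ± 0.16. The 7 probes span 142.8 kb of chromosome 3 in mm7, from chr3:107716471 in Gstm5 to chr3:107859231 in Gstm4, and those of Gstm7 and Gstm6 follow Gstm5 in that order. The Ugt2 genes and the trio of Sult1b1, Sult1d1 and Sult1e1 form another run of neighbours, on chromosome 5. Over 572.4 kb the Ugt2 run held 3 genes that fell and 0 that rose out of 8. That is 37.5% called, near the 30.2% of all genes, of which 16.7% were lower and 13.4% higher. The Sult1 trio, over 61.3 kb, held 2 that fell and 1 that rose, beside the same shares and too few genes to set against them.

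**Figure D3:**
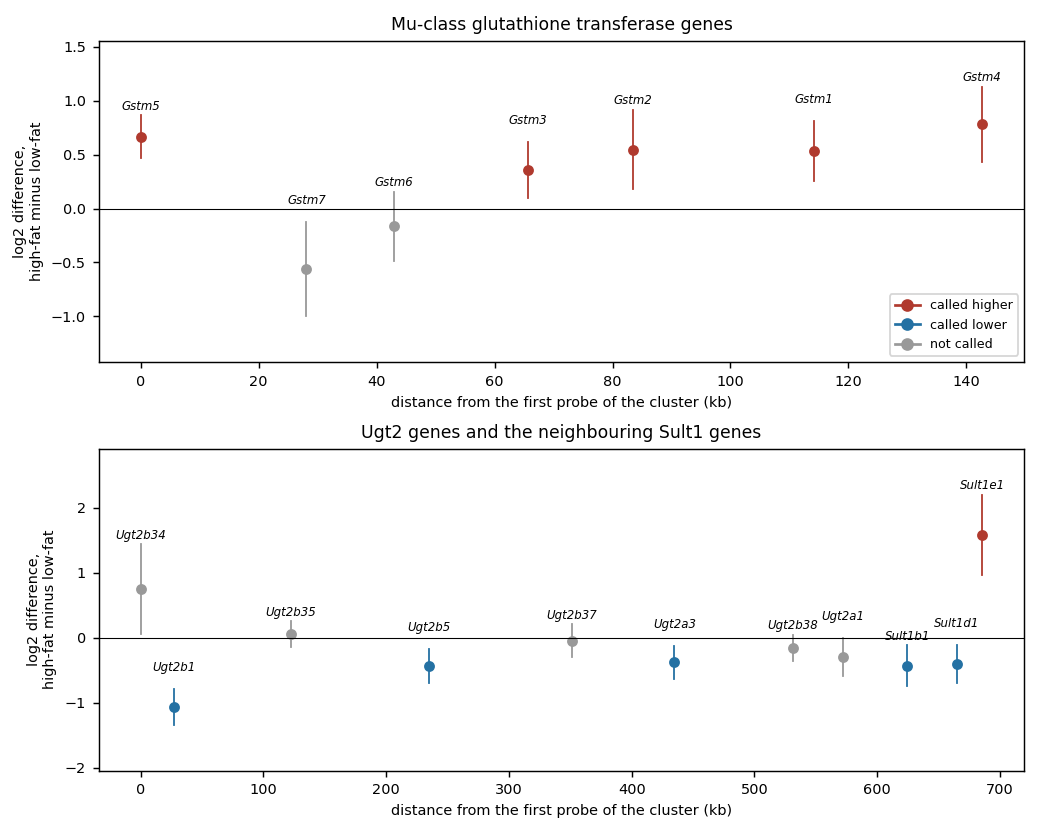
Log2 diet difference of each gene over both genotypes, with its 95% interval, against distance in kb from the first probe of its cluster, for the mu-class genes of chromosome 3 (upper) and the Ugt2 genes with their Sult1 neighbours of chromosome 5 (lower). In the upper panel 5 of 7 genes are called higher, beside 13.4% of all genes, with Gstm7 and Gstm6 below 0 beside Gstm5. In the lower panel Sult1e1, at 1.58, stands at the end of a run of genes mostly at or below 0.

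The alpha class makes up much of the glutathione transferase of hepatocytes and reduces lipid hydroperoxides. Gsta2 was at 2.34, 1.74 and 2.24 in WT and 1.66, 1.51 and 1.65 in Het on the low-fat diet, and at 2.84, 2.05 and 3.19 in WT and 3.27, 3.18 and 2.64 in Het on the high-fat diet. Only WT high-fat replicate 2 lay inside the low-fat range. The difference was 1.01 ± 0.20, or 2.01-fold (adjusted p = 0.0046). It was 1.43 ± 0.28 in Het (adjusted p = 0.0098) and 0.59 ± 0.28 in WT (adjusted p = 0.21), and the difference between these, tested as the interaction, was 0.84 ± 0.39 with adjusted p = 1.0.

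Gsta1, Gsta3 and Gsta4 were not called over both genotypes, with 0.26 ± 0.22, -0.07 ± 0.13 and 0.29 ± 0.17. Gsta4, which conjugates the lipid peroxidation product 4-hydroxynonenal, was called without both arrays that stood low, as were Gstk1, Gsto1 and Gstt2, each of them higher. Gsto2, whose product reduces dehydroascorbate, was at -2.75, -2.34 and -2.85 in WT and -2.83, -2.83 and -2.77 in Het on the low-fat diet, and at -2.72, -2.91 and -3.49 in WT and -3.26, -3.20 and -3.95 in Het on the high-fat diet. In Het the diets did not overlap, in WT they did. The difference was -0.53 ± 0.17 (adjusted p = 0.040), and -0.44 with adjusted p = 0.078 without both arrays that stood low.

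The remaining 7 glutathione transferases were not called. Gstp1, the pi-class enzyme, differed by -0.02 ± 0.12, the theta-class Gstt1, Gstt2 and Gstt3 by 0.15 ± 0.13, 0.23 ± 0.17 and -0.02 ± 0.20, and the organellar Gstk1 by 0.19 ± 0.14. Gsto1 differed by 0.13 ± 0.12 and Gstz1, which works in tyrosine breakdown as maleylacetoacetate isomerase, by -0.12 ± 0.10.

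Within a single genotype fewer genes passed. In WT 4 of 41 were called, beside 5.92% of all genes: Sult1e1, Ugt1a9 and Gstm5 higher (2.73% of all genes) and Ugt2b1 lower (3.19%). Next in order of p came Gstm4, at 0.63 ± 0.22 (adjusted p = 0.11). In Het 7 of 41 were called, beside 15.9% of all genes: those 4 with the same signs, and Gsta2 (1.43 ± 0.28), Gstm1 (0.69 ± 0.18) and Gstm4 (0.93 ± 0.22) higher, so 6 higher and 1 lower beside 7.6% and 8.26%. Groups that did not overlap were seen for 10 genes in WT, beside 30.4% of all genes, namely 3 higher and 7 lower, beside 12.5% and 18.0%, and for 13 genes in Het, beside 36.5%, namely 8 higher and 5 lower, beside 17.4% and 19.2%. The diet difference had the same sign in both genotypes for 35 of 41 genes (85.4%), beside 13275 of 17042 genes (77.9%). Without both arrays that stood low 2 genes were called in WT (Ugt1a9 and Ugt2b1, with Gstm5 at adjusted p = 0.053 and Sult1e1 at 0.10), beside 1.55% of all genes, and 10 in Het, beside 12.2%, where Sult1e1, at 0.067, was not among them.

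**Figure D4:**
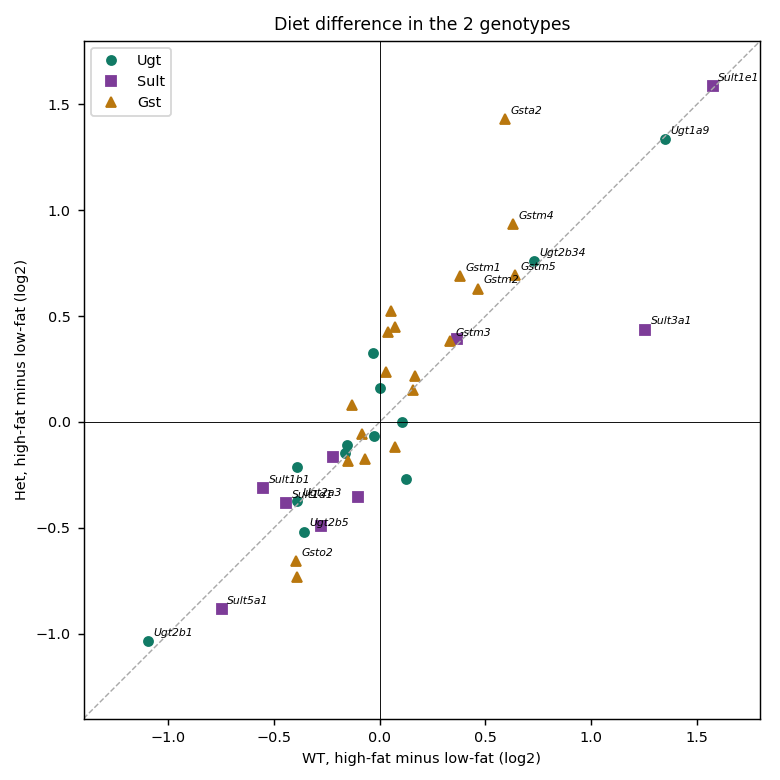
Log2 diet difference in WT (horizontal) against that in Het (vertical) for the 41 genes tested, with a symbol per enzyme family and a dashed line of equality. Sult1e1, Ugt1a9 and Ugt2b1 lie close to the line at 1.57 and 1.59, 1.35 and 1.34, and -1.09 and -1.03, while Gsta2 lies above it at 0.59 and 1.43; the position of Sult3a1 rests on signals mostly not above background.

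Sirt1 genotype gave no called gene among the 41, nor among all 17042 genes tested (0.0% in limma in each of the 4 comparisons). Without WT high-fat replicate 3 the count over all genes was 48 on the high-fat diet, 7 over both diets and 3 for the interaction, none of them among the 41. In that fit the WT high-fat arrays lay on slide 1 and the Het high-fat arrays on slide 2. Genotype and slide cannot be told apart there. The other alternatives gave a count of 0 to 2. Het was set against WT on the low-fat diet, on the high-fat diet and over both, and the diet difference in Het was set against that in WT. At an unadjusted p under 0.05 there were 0 of the 41 genes in each of the 4, beside 341 (low-fat), 1475 (high-fat), 824 (both diets) and 828 (interaction) of all genes. Sirt1 itself differed by -0.44 ± 0.09 over both diets, with an unadjusted p of 0.00071 and an adjusted p of 0.97. The lowest unadjusted p among the 41 genes were 0.10 for Gsta2 on the low-fat diet, 0.091 for Gstm7 on the high-fat diet, 0.075 for Ugt1a9 over both diets and 0.058 for Gsta2 in the interaction.

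The intervals given here are those of the fit without slide. Over both diets the 95% interval of the genotype difference lay within 1 log2 unit of 0 for 40 of the 41 genes, with a median half-width of 0.29. On a single diet it did so for 36 of 41, with a median half-width of 0.42, and for the interaction for 28 of 41, with 0.59. Ugt1a9 differed by -0.37 ± 0.19 over both diets (95% interval -0.80 to 0.05, adjusted p = 1.0), and by -0.58 ± 0.27 with slide as a block. In that fit Gstm7 differed by -0.47 ± 0.30 and Ugt2b34 by -0.56 ± 0.43. Its standard errors were larger for these genes, so the limit of 1 log2 unit does not carry over to it. Ugt1a9 had the lowest p over both diets without slide. Gstm7 (-0.35 ± 0.20), Gsto2 (-0.29 ± 0.17), Gstm2 (0.28 ± 0.17) and Sult1d1 (-0.22 ± 0.13) followed in order of p. For the interaction Gsta2 was followed by Gsta4 (0.47 ± 0.34), Ugt3a1 (0.36 ± 0.27), Ugt1a1 (-0.40 ± 0.31) and Gstm1 (0.31 ± 0.25). Gsta2 differed by -0.50 ± 0.28 on the low-fat diet, where all 3 Het livers lay below all 3 WT livers.

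Over both diets no gene had all 6 Het livers on one side of all 6 WT livers, beside 0.0469% of all genes, 0.0352% higher and 0.0117% lower. On the low-fat diet Gsta2, Gsta4 and Ugt2b1 lay lower in every Het than in every WT liver and no gene lay higher, 3 of 41 beside 4.35% of all genes (2.4% lower and 1.95% higher). On the high-fat diet Gstm4 lay higher and Sult1d1 lower in every Het liver, 2 of 41 beside 14.9% of all genes (9.15% higher and 5.79% lower). Gstm7, at 0.29, 0.26 and 0.58 in WT and 0.32, 0.07 and -0.81 in Het on the high-fat diet, differed by -0.52 ± 0.28. It differed by -0.24 without both arrays that stood low and by -0.73 ± 0.43 with slide as a block. On the high-fat diet that block sets the Het arrays against WT replicate 3 alone, the only WT array on their slide. Gsto2 differed by -0.43 ± 0.24 on the high-fat diet, and by -0.12 without both arrays that stood low. With slide as a block it was 0.025 ± 0.31, which gives no direction. Next in order of p on the high-fat diet came Gstm2 (0.36 ± 0.24), Gstt2 (0.35 ± 0.24) and Ugt1a1 (-0.32 ± 0.22). With slide as a block these were 0.11 ± 0.33, 0.18 ± 0.36 and -0.23 ± 0.33. On the low-fat diet Gsta2 was followed by Sult1b1 (-0.34 ± 0.20), Ugt1a9 (-0.37 ± 0.27), Sult1d1 (-0.25 ± 0.19) and Ugt2b1 (-0.23 ± 0.18).

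**Figure D5:**
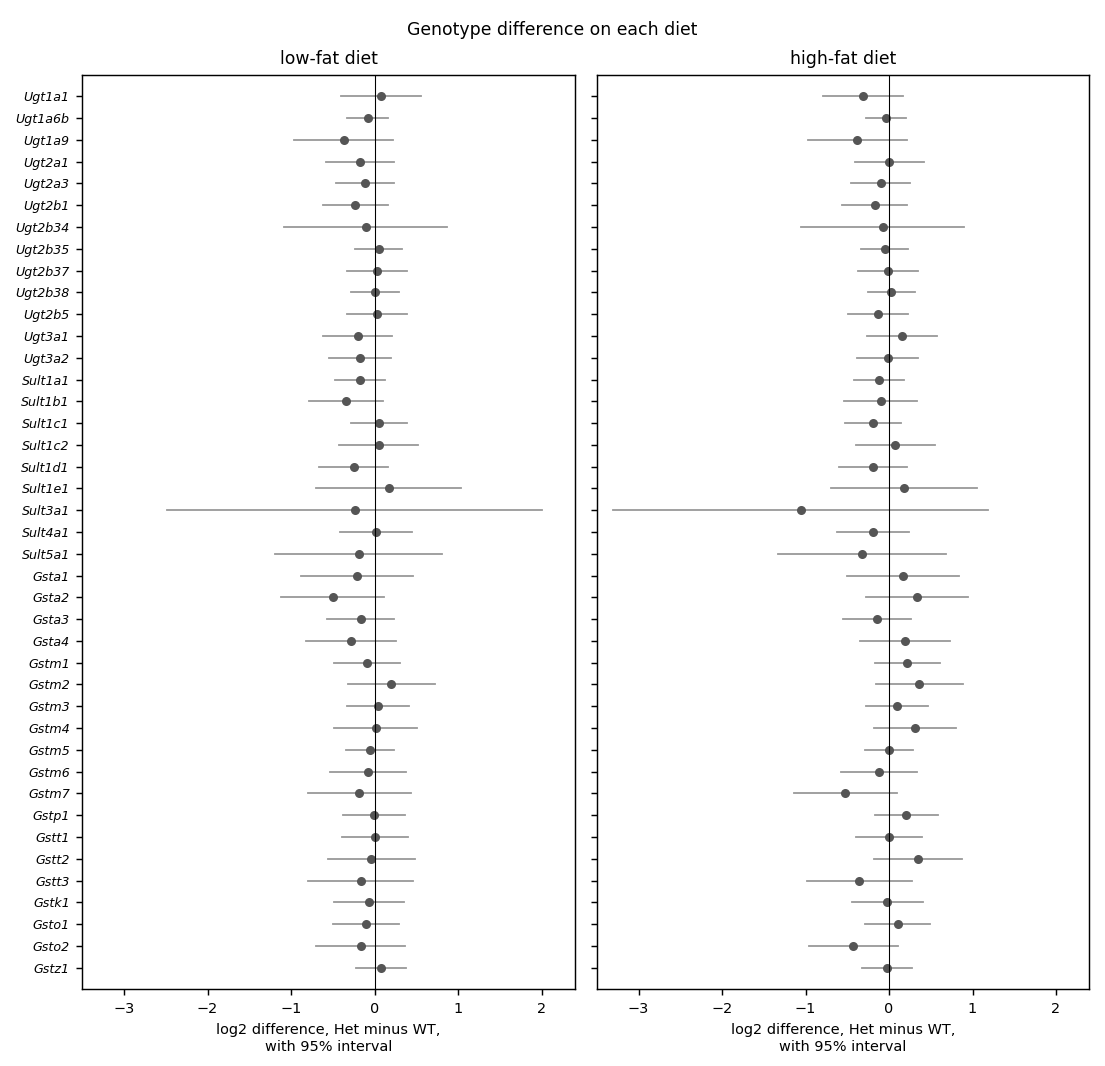
Log2 difference of Het minus WT for each of the 41 genes on the low-fat diet (left) and on the high-fat diet (right), as points with lines for the 95% interval. Every interval crosses 0, and 36 of 41 on each diet lie within 1 log2 unit of it; the interval of Sult3a1, which was mostly not above background, is the widest.

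The promoters of 3 genes are shown: Gstm5 and Gstm1, mu-class genes of chromosome 3 that both rose, and Ugt2b1, which fell. Sequences are those of RefSeq on the mouse build GRCm38.p6, 250 bases before the start site, on the strand of the gene, and 38 of the 44 genes had a window. Windows of 300 bases, from 250 before to 50 after the start, were searched on both strands for TGACNNNGC, the core of the antioxidant response element that NFE2L2 binds, and for GCGTG, the core bound by AHR with ARNT. Capitals mark matches. In Gstm5, at chr3:107895604-107895853 on the plus strand, TGACCACGC starts 42 bases before the start site, and its last 5 bases are also a match of GCGTG on the other strand.
Gstm5: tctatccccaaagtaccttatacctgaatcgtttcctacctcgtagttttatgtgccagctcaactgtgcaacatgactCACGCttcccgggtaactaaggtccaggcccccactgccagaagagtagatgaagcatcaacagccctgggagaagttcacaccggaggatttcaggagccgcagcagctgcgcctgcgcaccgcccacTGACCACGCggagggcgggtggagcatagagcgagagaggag

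In Gstm1, at chr3:108017974-108018223 on the minus strand, GCGTG starts 76 bases before the start site shown, the more upstream of those given by RefSeq.
Gstm1: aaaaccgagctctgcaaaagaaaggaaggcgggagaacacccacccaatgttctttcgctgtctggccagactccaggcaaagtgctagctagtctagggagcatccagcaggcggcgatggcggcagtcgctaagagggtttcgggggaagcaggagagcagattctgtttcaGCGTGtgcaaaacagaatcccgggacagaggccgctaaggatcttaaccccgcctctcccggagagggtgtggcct

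Ugt2b1, at chr5:86926504-86926753 on the minus strand, holds neither motif in this window.
Ugt2b1: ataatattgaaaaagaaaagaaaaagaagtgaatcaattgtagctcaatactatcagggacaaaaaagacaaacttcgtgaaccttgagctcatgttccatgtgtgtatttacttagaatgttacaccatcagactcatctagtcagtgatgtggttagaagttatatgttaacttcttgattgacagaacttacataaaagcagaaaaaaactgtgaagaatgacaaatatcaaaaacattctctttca

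TGACNNNGC occurred in a window of 14.0% of all genes and of 3 of the 38 genes (Gsta3, Gstm5 and Gstm7), of which only Gstm5 was among the 8 that rose. GCGTG occurred in that of 35.2% of all genes and of 9 of 38 genes. Of these, 5 were among the 14 called: 3 that rose, and Sult1b1 and Sult1d1, which fell. Sult1e1, which rose most, held neither motif, so the 3 windows shown do not stand for all called genes. A match describes the letters of a window only.

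Genes around the conjugation reactions moved with diet as well, again with both genotypes together and beside 13.4% of all genes higher and 16.7% lower. Of 25 genes that make or carry the cofactors, 6 rose and 5 fell. Ugdh, which makes UDP-glucuronic acid, rose by 0.73 ± 0.11, Gss, the glutathione synthetase, by 0.92 ± 0.13, and Slc13a4, a sulfate transporter, by 1.53 ± 0.29. Chac1, which breaks glutathione down, and Cth, which supplies its cysteine, differed by -0.83 ± 0.19 and -0.74 ± 0.20. The PAPS synthases did not pass, at 0.07 ± 0.19 (Papss1) and -0.06 ± 0.16 (Papss2), nor did Gclc, the rate-limiting step of glutathione synthesis, at -0.08 ± 0.13.

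Among 28 phase II and related enzymes of other families 4 rose and 3 fell, with Mgst3, a membrane-bound glutathione transferase, at 0.71 ± 0.16 and Ephx1, the microsomal epoxide hydrolase, at 0.69 ± 0.12. Nat8, which acetylates cysteine conjugates, was at -0.91 ± 0.17, and Ltc4s, the leukotriene C4 synthase, at -0.80 ± 0.18. Of 12 deconjugating enzymes 1 rose, the sulfatase Arsg (0.66 ± 0.14). Of 15 transporters of conjugates 3 rose, the basolateral exporter Abcc3 (0.70 ± 0.14) and the drug pumps Abcb1a (1.56 ± 0.24) and Abcb1b (0.68 ± 0.12), and 2 fell, the uptake carriers Slco1a1 (-2.61 ± 0.39) and Slc22a7 (-1.30 ± 0.31). The canalicular exporter Abcc2 differed by -0.00 ± 0.07.

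Of 28 regulators 2 rose and 7 fell, beside 13.4% and 16.7% of all genes. Mafk, a partner of NFE2L2 on DNA, rose by 0.49 ± 0.07 and Stat5a, a target of growth hormone signalling, by 0.68 ± 0.14. Foxa1 (-1.03 ± 0.22), Arnt (-0.64 ± 0.16), Hnf4a (-0.62 ± 0.12) and Rxra (-0.61 ± 0.11), all factors of hepatocyte gene control, fell, as did Nr1h4 (-0.35 ± 0.09), Cebpa (-0.34 ± 0.11) and Sirt1 (-0.30 ± 0.09). The RNA of the sensors themselves did not pass the test: Nfe2l2 at 0.07 ± 0.11, Nr1i2 (PXR) at 0.23 ± 0.13, Nr1i3 (CAR) at -0.14 ± 0.16 and Ahr at 0.03 ± 0.15. Among others not called, Foxa2 was at -0.39 ± 0.14 and Bcl6 at 0.44 ± 0.37, with Stat5b at -0.24 ± 0.10, Nr3c1 at -0.24 ± 0.10, Bach1 at -0.16 ± 0.09 and Ppara at -0.13 ± 0.11. Between -0.09 and 0.17 lay Keap1, Nr1h3, Mafg, Rxrb, Cebpb, Ppargc1a and Esr1.

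Lists of their targets outside the 3 families were described by counts, beside the same 13.4% of all genes higher and 16.7% lower. Of 22 NFE2L2 targets 11 rose and 1 fell, with a median of 0.39, among them Cbr3 (2.45 ± 0.21), Srxn1 (1.18 ± 0.10), Pgd (0.89 ± 0.15), Tkt (0.72 ± 0.10) and Nqo1 (1.01 ± 0.19). Of 24 CAR and PXR targets 11 rose and 2 fell, with a median of 0.31; Cyp2b10 (1.67 ± 0.41) and Cyp3a11 (1.24 ± 0.17) rose, and Cyp2c54 (-1.51 ± 0.21) and Cyp2c37 (-1.12 ± 0.21) fell. Of 5 AHR targets tested only Nqo1 was called, and Cyp1a1 differed by 0.49 ± 0.27. Some genes stand on more than 1 of these lists, so the counts are not independent.

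Genes known to differ between the sexes moved on the same arrays, where 13.4% of all genes were called higher and 16.7% lower. Of 21 male-biased liver genes outside the 3 families 11 fell and 0 rose, with a median of -0.86, among them Hsd3b4 (-5.12 ± 0.47), Hsd3b5 (-4.89 ± 0.58) and Cspg5 (-1.74 ± 0.23). The 21 genes include Moxd1, which was above background on only 5 of 12 arrays. It passed the filter only through the WT low-fat group, so its fall is not given as a result. Of 19 female-biased genes 9 rose and 0 fell, with a median of 0.64, among them Cyp2b13 (2.16 ± 0.38), Cd36 (1.41 ± 0.26), Cyp3a16 (1.01 ± 0.18) and Rtn4 (0.50 ± 0.08). A gene stands on both of these lists, and several female-biased genes, Cyp2b13 and Cyp3a16 among them, also on that of the CAR and PXR targets. These counts are therefore not independent. All 12 mice were male, and the part of sex-biased regulation in the conjugation enzyme differences was not tested.

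Markers of other liver cells were counted in the same comparison, beside 13.4% of all genes called higher and 16.7% lower. Some of these lists lie near or below those shares. Of 12 cholangiocyte and progenitor markers 6 rose, among them Spp1 (1.86 ± 0.33), and the log2 of their summed level ran from 4.03 to 4.31 in the low-fat and from 4.50 to 6.33 in the high-fat livers. Of 13 stellate cell and fibroblast markers 7 rose, among them Col1a1 (2.07 ± 0.34), with summed levels of 6.00 to 6.44 against 6.44 to 6.93. Of 16 macrophage markers 4 rose, among them Trem2 (2.01 ± 0.29), and 2 fell, with summed levels of 6.88 to 7.76 against 7.12 to 7.79. Of 6 adipocyte markers tested 5 rose (2.63 to 5.06 against 6.41 to 7.24); of the 10 listed, Lep was above background on no array, Plin1 on 3 and Adipoq on 7, while Cidec, Cidea and Fabp4 were above it on all 12. Of 12 endothelial markers 1 rose and 4 fell, of 7 neutrophil markers 3 rose, of 12 T and NK cell markers 2 fell, and of 7 B cell and 4 red blood cell markers none was called. Pancreatic acinar markers (1 higher and 2 lower of 4) and kidney and intestine markers (1 higher of 4) held called genes too. Of 10 periportal hepatocyte genes 1 rose and 3 fell, and of 12 pericentral ones 2 rose and 3 fell. Of 11 hepatocyte markers 3 fell, Cps1 (-1.03 ± 0.11), Ttr (-0.68 ± 0.16) and Hnf4a (-0.62 ± 0.12), with summed levels of 10.20 to 10.72 against 10.12 to 10.64. The part of these markers in the differences of the conjugation enzymes was not tested. In the 4 genotype comparisons none of the genes on these lists was called.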

How the data were processed

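Total RNA of 12 livers, 4 groups of 3, was hybridised to 1-colour Agilent arrays with 60-base probes. The authors deposited intensity values, named in the file headers as processed signals; the submitters' processing notes list Agilent Feature Extraction 9.5. Flags for background, saturation and outliers, other columns of the same files without a unit, are given per the file headers, as are mm7 probe positions. The deposited series table held the same values.

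The processed intensity was taken as log2 minus the log2 75th percentile of the array. Outlier spots (1344) were dropped and spots of a probe averaged. Probes had to exceed background in every array of 1 or more groups (25296 did), and the brightest per gene was tested (17042). The model, limma 3.58.1 under R 4.3.3, held 4 group means (8 residual and 2.80 prior degrees of freedom), two-sided, with Benjamini-Hochberg adjustment over all genes, in 7 comparisons. Replicate numbers did not pair the samples. Genes named are those called, the 2 brightest of each class and, where fewer than 5 were called, the 5 of lowest p, with the regulators and up to 4 called genes of lowest p per list; other genes named were chosen after their values were seen, as were the fit over all probes and that without 2 arrays. Alternatives varied scaling, background, filter, probe choice, blocks and samples. The 44 genes and all lists were chosen with earlier results of these data known. Some items that this rule gives, and 1 promoter motif searched, are not reported here. The fit was tested on simulated data with 200 of 17042 genes changed per comparison. Of 1.5-fold changes it called 11.9% for genotype on either diet, 46.3% over both diets and 4.48% in the interaction. Of 2-fold changes it called 62.7% (high-fat), 64.2% (low-fat), 85.1% (both diets) and 8.96% (interaction). Changes of these sizes could thus be missed.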

Additional observations from a re-analysis of the deposited data

How the results depend on the processing

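Over both genotypes 14 of 41 genes were called with diet, and 8 with no filter on dim probes (13.7% of all genes), 9 with the replicate block (25.8%) and 22 with slide as a random block (51.1%), against 30.2% of all genes. In WT the count of 4 (5.92%) became 1 (0.564%), 7 (21.1%) and 2 (3.51%) with no filter, slide as a random block and only the 2 groups compared, and 2 (1.55%) without both high-fat arrays that stood low, an alternative chosen after seeing the data. In Het the count of 7 (15.9%) became 4 (4.3%) with no filter and 15 (31.8%) with slide as a random block. Leaving out each array in turn gave 1 to 4 in WT, 4 to 10 in Het, 9 to 15 over both genotypes and 0 to 0 in every genotype comparison and the interaction. Over both genotypes, scaling arrays to their median gave 9 higher and 2 lower where the 75th percentile gave 8 and 6; that scaling moved the median of all genes in WT with diet from -0.05 to 0.07 and of genotype on the high-fat diet from 0.03 to -0.09. Of 1076 alternative values of 50 named differences 953 kept direction and side of the threshold, 119 fell short of it, 3 passed it and 1 turned its sign. This was Gsto2 with genotype on the high-fat diet, at 0.025 ± 0.31 with slide as a block, a value that rests on WT replicate 3 alone. Of 25 called values 12 were called under every alternative. The consensus correlation within slides was -0.18. Diet lies between slides, so in the fit with slide as a random block this negative value lowers the standard error of a diet difference. The higher counts of that fit are therefore no stricter check. The cause of the other shifts was not tested. Same-numbered samples correlated between -0.47 and 0.46, so the replicate block follows numbers only. Low signal limits Sult3a1, Sult2a2, Sult2b1 and Ugt8a.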
